A study of Homo sapiens with 18 samples.

Results

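The response of anterior neural ectoderm (aNE) to a midbrain medium was described from 4 of the 18 libraries of the series. They were the 2 libraries of aNE collected on day 2 and the 2 libraries of cells carried on from aNE in midbrain medium and collected on day 4 (aNE_M). Genes entered the comparison when they had at least 1 TPM in at least 2 of these 4 libraries, and 14678 of the 37550 rows of the expression table did. The unit TPM scales the abundance of a gene by its length and by the library's total. All cells came from H1, an established human pluripotent stem cell line, with a wild-type genotype. On day 1 all cells that left the pluripotent state received the TGF-beta receptor inhibitor A8301 at 1 µM, the MEK inhibitor trametinib at 250 nM, C59 at 1 µM, a porcupine inhibitor that keeps WNT ligands from being released, and the BMP receptor inhibitor LDN193189 at 100 nM. On day 2 the aNE cells were replated as single cells with A8301 at 1 µM, LDN193189 at 100 nM, C59 at 1 µM and the ROCK inhibitor thiazovivin at 1 µM. The aNE libraries came from cultures plated at 37500 cells per cm2, and all day-4 cultures of aNE origin were plated at 75000 cells per cm2. The composition of the midbrain medium is not given in the sources used here. The aNE_M libraries were also set against day-4 cells of the same origin and density kept in forebrain medium (aNE_T; on day 3 the tankyrase inhibitor XAV939 at 1 µM, LDN193189 at 100 nM and FGF2 at 20 ng/mL) or in hindbrain medium (aNE_H). The last comparison used posterior neural ectoderm (pNE) and its day-4 derivatives in midbrain medium (pNE_M). The pNE cells had received on day 2, with A8301, LDN193189 and thiazovivin at the same doses, also XAV939 (1 µM), FGF2 (20 ng/mL) and TTNPB (50 nM), an agonist of retinoic acid receptors, with pNE_M plated at 150000 cells per cm2.

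The vertebrate neural plate is divided along its length by opposing signals. WNT ligands, released from the posterior side and later from the midbrain, push cells towards posterior identities, and secreted WNT antagonists keep the most anterior plate free of that signal. In cells that receive WNT, beta-catenin enters the nucleus, joins TCF/LEF factors and switches on a set of targets that includes many of the pathway's own inhibitors. The midbrain is bounded behind by the isthmus, a signalling centre that releases FGF8-family ligands and lies where the territory of OTX2 meets that of GBX2. The engrailed genes and PAX2, PAX5 and PAX8 are the classical transcription factors of the midbrain and isthmus, whereas SIX3, the FEZF genes, LHX2, RAX and HESX1 belong to the forebrain and eye field, and the HOX genes to the hindbrain and spinal cord.

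Between 13686 and 14602 genes reached 1 TPM in the 4 libraries, and each library correlated best with its own replicate across the 17033 genes tested in all 18 libraries (Pearson's r of 0.985 and 0.986 within the aNE and aNE_M pairs, at most 0.968 with a library of another group; genes are not independent replicates). No library stood apart from its pair. Mitochondrial genes took 3.19% and 3.28% of the TPM in aNE and 1.53% and 1.85% in aNE_M; they took 2.52% and 2.29% in aNE_T and 2.06% and 2.00% in aNE_H. The part of this share in the results below was not tested. Time in culture, plating density and medium all changed between aNE and aNE_M and cannot be told apart in that comparison. In the comparisons with aNE_T and aNE_H, day and density were the same. The labels describe the replicates as biological and distinct, and with 2 per group each test rests on a spread estimated over all 9 groups. These are bulk libraries, so fewer cells of a type and less RNA per cell cannot be told apart.

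By day 4 in midbrain medium, WNT targets, engrailed and PAX genes stood among the largest rises, and forebrain, progenitor and pluripotency factors among the largest falls. Of the 14678 genes tested, 2024 (13.8%) were called changed, that is with an adjusted p under 0.05 and a difference of at least 1 on the log2(TPM + 1) scale; 734 (5.0%) rose and 1290 (8.79%) fell. The median difference over all tested genes was -0.01. Among the called genes, 494 of those that rose and 808 of those that fell had at least 1 TPM in all 4 libraries. Differences are given on the log2(TPM + 1) scale, as aNE_M minus aNE unless another group is named, with the standard error and the Benjamini-Hochberg adjusted p from limma; the scale understates changes of genes with low values.

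The 12 largest rises were those of DKK1, SP5, MSX1, EN1, APCDD1, TMEM132C, ZNF503, PAX3, FGF17, APLNR, MIXL1 and PAX5. DKK1, a secreted WNT antagonist that is itself a target of the pathway, stood at 0.257 and 0.0480 TPM in aNE and 387 and 459 TPM in aNE_M (difference 8.52 ± 0.16, adjusted p = 1.52e-12). SP5, a zinc finger factor and WNT target, stood at 1.44 and 2.08 TPM before and 706 and 473 TPM after (7.72 ± 0.40, adjusted p = 7.54e-09). Both genes went from at most 2.08 TPM to at least 387 TPM, with no overlap between the groups; over all tested genes, 33.4% had both aNE_M libraries above both aNE libraries and 35.5% had both below. ZNF503, a transcriptional repressor of the NET family, stood at 1.04 and 1.43 TPM in aNE and 211 and 195 TPM in aNE_M (6.52 ± 0.17, adjusted p = 1.94e-11). TMEM132C, a transmembrane protein gene, stood at 0.194 and 0.241 TPM and then 114 and 127 TPM (6.64 ± 0.14, adjusted p = 3.39e-12).

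The 12 largest falls were those of HES3, SOX21, FEZF1, CYP26A1, FZD5, POU5F1, SIX3, HESX1, SCNN1A, FGFR3, SORBS2 and DLK1. HES3, a bHLH repressor of the Hairy and Enhancer of split family, stood at 196 and 176 TPM in aNE and 0.155 and 0.130 TPM in aNE_M (-7.35 ± 0.29, adjusted p = 5.24e-10). HES3 was also low in the other day-4 media, and stood at 0.778 and 0.375 TPM in aNE_T and 3.53 and 2.23 TPM in aNE_H. SCNN1A, a subunit of the epithelial sodium channel, stood at 87.7 and 61.9 TPM in aNE and 0.706 and 1.14 TPM in aNE_M (-5.29 ± 0.33, adjusted p = 4.12e-08), and at 1.61 and 1.75 TPM in aNE_T. In the scatter of group means, the labelled rises come from genes that were near the low end in aNE, and the labelled falls from genes that were well expressed in aNE.

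**Figure D1:**
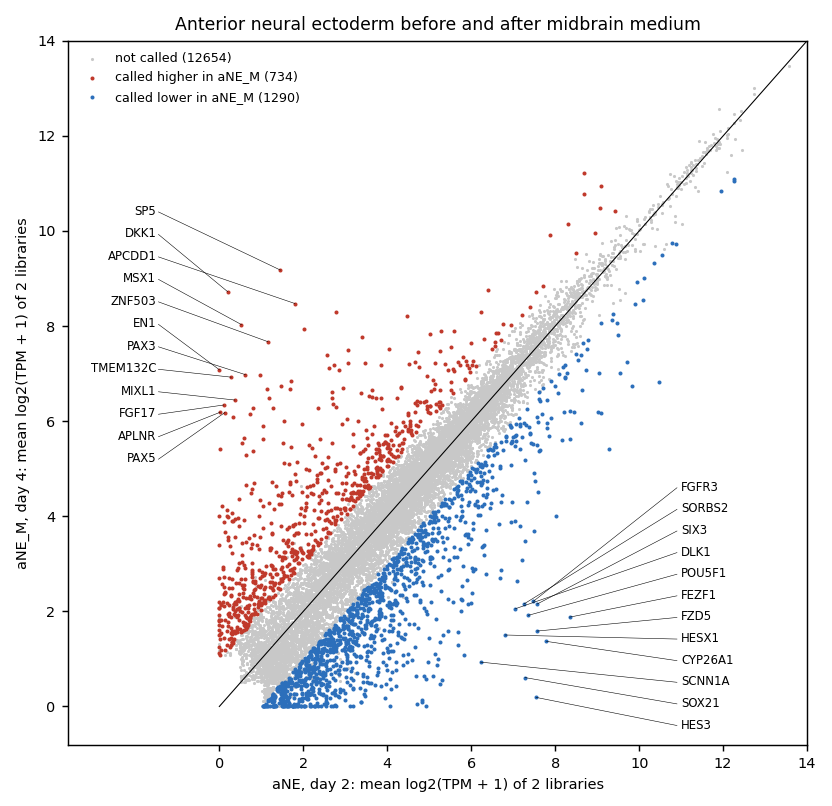
Each point is 1 of the 14678 tested genes, with the mean log2(TPM + 1) of the 2 aNE libraries on the x axis and of the 2 aNE_M libraries on the y axis; red points (734) were called higher and blue points (1290) lower in aNE_M, and the line marks equal values. The 12 labelled rises, such as DKK1 and EN1, sit along the left edge of the cloud, and the 12 labelled falls, such as HES3 and SOX21, along its lower edge.

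Most midbrain and isthmus genes that could be tested rose. Of the 14 genes listed, 11 passed the filter on low values, 9 rose, LMX1A fell and FGF8 was not called, against 5.0% of all genes called higher. The median difference of the 11 was 3.77, beside -0.01 over all tested genes; 6 of the 11 (EN1, EN2, PAX5, CNPY1, FGF17 and FGF18) passed the filter only through the aNE_M libraries, so that they could enter only by being higher there. PAX8, DMBX1 and WNT1 did not reach the filter.

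EN1, a homeobox factor of the midbrain and anterior hindbrain, was listed at 0 in both libraries of aNE and stood at 141 and 128 TPM in aNE_M (7.08 ± 0.15, adjusted p = 4.68e-12). Its paralog EN2 stood at 0.0481 and 0.0472 TPM in aNE and 18.8 and 16.6 TPM in aNE_M (4.16 ± 0.16, adjusted p = 5.62e-10). Neither gene was on in the other day-4 media at that level: EN1 had 0 TPM listed for each aNE_T library and stood at 0.989 and 0.749 TPM in aNE_H, and EN2 had 0 TPM listed for each aNE_T library and stood at 0 and 0.0775 TPM in aNE_H. PAX2, a paired-box factor among the earliest marks of this territory, stood at 1.04 and 1.36 TPM in aNE, 100.4 and 101 TPM in aNE_M, 1.73 and 1.47 TPM in aNE_T and 2.55 and 1.59 TPM in aNE_H (5.54 ± 0.18, adjusted p = 1.06e-10 against aNE). PAX5, which follows PAX2 in the same domain, stood at 0.129 and 0.0652 TPM in aNE and 68.6 and 74.7 TPM in aNE_M (6.05 ± 0.35, adjusted p = 2.09e-08). It was also present at 8.77 and 19.1 TPM in aNE_H, and the difference of aNE_M from aNE_H was 2.37 ± 0.35, adjusted p = 0.000351. LMX1B, a LIM homeobox factor needed for the isthmus, stood at 3.68 and 2.80 TPM before and 17.0 and 20.0 TPM after (2.21 ± 0.21, adjusted p = 2.57e-06).

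The FGF8-family ligands of the isthmus did not move alike. FGF17 stood at 0.0955 and 0.0513 TPM in aNE and 86.1 and 74.3 TPM in aNE_M (6.24 ± 0.18, adjusted p = 3.25e-11), above the 1.46 and 1.39 TPM of aNE_T and the 7.99 and 6.02 TPM of aNE_H. FGF18 reached 3.89 and 3.09 TPM from 0.488 and 0.171 TPM (1.76 ± 0.20, adjusted p = 1.12e-05), a level that aNE_H also had (4.08 and 3.40 TPM). FGF8 itself stood at 4.69 and 3.63 TPM in aNE and 2.50 and 2.42 TPM in aNE_M and was not called (-0.57 ± 0.33, adjusted p = 0.195). Its highest level in these groups was in aNE_T, at 77.5 and 64.9 TPM, and aNE_M was lower than aNE_T (-4.38 ± 0.33, adjusted p = 4.04e-07). CNPY1, a regulator of FGF receptor signalling at the isthmus, stood at 0.101 and 0.0328 TPM and then 8.02 and 5.47 TPM (2.84 ± 0.19, adjusted p = 9.07e-08), and was at or near 0 in aNE_T and aNE_H. IL17RD, also known as SEF, an inhibitor of FGF signalling, stood at 9.75 and 10.2 TPM in aNE and 145 and 152 TPM in aNE_M (3.77 ± 0.08, adjusted p = 2.39e-12); it was also high in aNE_T (186 and 184 TPM) and aNE_H (166 and 142 TPM). WNT1, the WNT ligand of the midbrain-hindbrain boundary, was at 0.303 and 0.343 TPM in aNE and 0 and 0.0258 TPM in aNE_M and was not tested. LMX1A, a factor of the floor and roof plates, fell from 4.41 and 4.80 TPM to 0.667 and 1.04 TPM (-1.60 ± 0.18, adjusted p = 9.69e-06), and stood at 0.322 and 0.153 TPM in aNE_T.

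Against the other media, where day and density were matched, 8 of the 12 midbrain and isthmus genes tested were higher in aNE_M than in aNE_T (3.50% of all 17033 genes were called higher and 6.55% lower) and FGF8 was lower. Against aNE_H, 7 were higher (2.65% of all genes were called higher and 2.27% lower) and FGF8 was again lower. EN1, EN2, PAX2, PAX5, LMX1B, CNPY1 and FGF17 were called higher in aNE_M against aNE, aNE_T and aNE_H. These comparisons share the aNE_M libraries and are not independent of each other.

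Genes of the OTX and GBX territories on each side of the isthmus were present together. OTX2, the homeobox factor of the forebrain and midbrain, stood at 203 and 214 TPM in aNE and 136 and 162 TPM in aNE_M and was not called (-0.49 ± 0.14, adjusted p = 0.0148). It was higher in aNE_M than in aNE_T (71.0 and 62.7 TPM; 1.14 ± 0.14, adjusted p = 3.78e-05) and aNE_H (25.2 and 27.7 TPM; 2.45 ± 0.14, adjusted p = 7.94e-08). OTX1 rose from 0.747 and 0.803 TPM to 10.9 and 11.6 TPM (2.79 ± 0.20, adjusted p = 1.45e-07), and stayed under 1 TPM in all 4 libraries of the other media. GBX2, the homeobox factor of the anterior hindbrain, rose from 1.04 and 1.05 TPM to 16.2 and 9.67 TPM (2.73 ± 0.20, adjusted p = 1.88e-07). In the order of GBX2 levels aNE_M came after aNE_H (91.9 and 88.0 TPM) and aNE_T (29.3 and 30.7 TPM), and it was called lower than both. GBX1 did not reach the filter, so 3 of the 4 listed genes were tested, with a median difference of 2.73; OTX1 passed only through aNE_M.

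Hindbrain genes were near 0. Of 14 listed genes only FGF3 and KREMEN1 passed the filter, both through aNE_M, with a median difference of 1.22. The 9 listed HOX genes stood below 0.5 TPM in every aNE and aNE_M library. FGF3, a ligand of the early hindbrain and the otic region, was listed at 0 in both libraries of aNE and stood at 2.11 and 2.50 TPM in aNE_M (1.72 ± 0.19, adjusted p = 1.14e-05). KREMEN1, a co-receptor for DKK1, was not called (0.72 ± 0.21, adjusted p = 0.0162), though it was under quantile normalization (1.00) and with a pseudocount of 0.1 (1.26). EGR2, a factor of single hindbrain segments, had a group mean of 0.342 TPM in aNE_M. The plot of regional genes by library shows aNE_M apart from the other groups for EN1, EN2, PAX2 and FGF17, and all groups at the floor for the HOX genes.

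**Figure D2:**
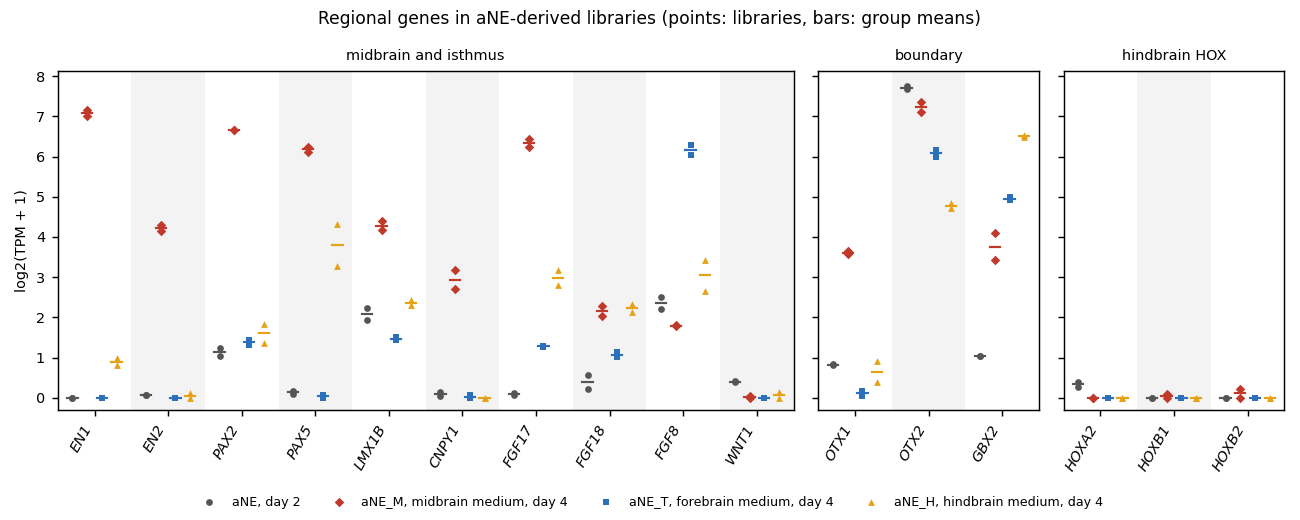
The y axis gives log2(TPM + 1) for midbrain and isthmus genes, OTX and GBX genes and 3 HOX genes; each point is 1 library and each bar a mean of 2, for aNE (grey circles), aNE_M (red diamonds), aNE_T (blue squares) and aNE_H (orange triangles). The aNE_M libraries are highest for EN1 (141 and 128 TPM) and PAX2 (100.4 and 101 TPM), aNE_T is highest for FGF8, and aNE_H for GBX2.

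Most targets and feedback inhibitors of WNT rose. Of 14 genes listed, 13 were tested; 11 rose, none fell in limma's test (0 at an unadjusted p under 0.05), and the median difference was 3.91, with 5.0% of all genes called higher. DKK1, NOTUM and RNF43 passed the filter only through aNE_M. The 2 genes not called were CCND1 (0.72 ± 0.10, adjusted p = 6.11e-05) and NKD2 (-0.26 ± 0.36, adjusted p = 0.596), and LGR5 did not reach the filter. AXIN2, a scaffold of the beta-catenin destruction complex and the usual reporter of pathway activity, stood at 6.27 and 5.55 TPM in aNE and 315 and 312 TPM in aNE_M (5.51 ± 0.09, adjusted p = 8.81e-13). In the other media AXIN2 stood at 7.80 and 9.09 TPM (aNE_T) and 35.1 and 32.8 TPM (aNE_H), so that aNE_M was highest and aNE_H next. APCDD1, a membrane inhibitor of WNT, rose from 2.79 and 2.21 TPM to 337 and 373 TPM (6.67 ± 0.24, adjusted p = 2.65e-10). NKD1, an inhibitor that binds Dishevelled, rose from 2.43 and 3.80 TPM to 256 and 235 TPM (5.92 ± 0.50, adjusted p = 9.20e-07). LEF1, a nuclear partner of beta-catenin, rose from 4.14 and 6.31 TPM to 125 and 152 TPM (4.50 ± 0.21, adjusted p = 2.71e-09). NOTUM, a secreted enzyme that inactivates WNT ligands, rose from 0.128 and 0.675 TPM to 22.4 and 17.2 TPM (3.91 ± 0.24, adjusted p = 4.70e-08). The 4 smallest rises of the list, between 1.26 and 1.49, were those of TNFRSF19, RNF43, TCF7 and ZNRF3, the last of which removes Frizzled receptors from the cell surface as RNF43 does. Against aNE_T, 11 of the 14 genes were higher and none lower (1 at an unadjusted p under 0.05 in limma's test), with 3.5% of all genes called higher. Against aNE_H, 10 were higher and none lower (1 at an unadjusted p under 0.05), with 2.65% of all genes called higher.

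The upstream promoters of DKK1 and SP5, the genes with the largest rises, are shown because they held the words to which TCF/LEF factors bind. The 250 bases before the start of each gene were taken from RefSeq promoters (GRCh38.p14) and searched on both strands for CTTTGNN with an A or a T at each N, a word that cannot overlap itself on a strand. Of the 11 genes of the list that rose, 7 had a promoter in the table and 2 of these held a match; 3297 of all 27305 promoters of this length (12.1%) held at least 1. The promoters without a match were those of APCDD1, LEF1, TCF7, RNF43 and TNFRSF19. AXIN2, NKD1, NOTUM and ZNRF3 had no entry. The matches are in capitals, DKK1 with 2 on the gene's strand and SP5 with 1 on the gene's strand and 2 on the other; the sequences run 5′ to 3′ on the gene's strand, which is the plus strand for both, at chr10:52314031-52314280 and chr2:170715087-170715336. A match describes the letters only and was not tested as a binding site.
DKK1: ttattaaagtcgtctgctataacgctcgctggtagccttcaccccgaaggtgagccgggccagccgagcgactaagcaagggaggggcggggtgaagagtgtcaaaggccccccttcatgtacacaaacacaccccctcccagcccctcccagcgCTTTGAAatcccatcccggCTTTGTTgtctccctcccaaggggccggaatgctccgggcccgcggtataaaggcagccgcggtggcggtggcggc
SP5: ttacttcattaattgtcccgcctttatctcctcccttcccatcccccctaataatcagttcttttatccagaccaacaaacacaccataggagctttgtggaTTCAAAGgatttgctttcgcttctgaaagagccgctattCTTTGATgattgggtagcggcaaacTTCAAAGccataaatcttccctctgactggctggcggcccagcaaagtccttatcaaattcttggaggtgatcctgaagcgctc

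WNT ligands moved in both directions against aNE, and the list of receptors and extracellular antagonists leaned lower. Over all tested genes, 5.0% were called higher than in aNE and 8.79% lower. Of 13 ligand genes 8 were tested; WNT4, WNT3, WNT5B and WNT8B rose and WNT10B and WNT7B fell, with a median difference of 0.95. WNT3 and WNT8B passed only through aNE_M, and WNT7B and WNT10B only through aNE. WNT4 had the highest level, at 45.2 and 45.3 TPM in aNE_M from 4.30 and 6.74 TPM in aNE (2.85 ± 0.22, adjusted p = 3.06e-07), and was higher than in aNE_T (4.99 ± 0.22) and aNE_H (2.60 ± 0.22). WNT7B stood at 1.14 and 1.69 TPM in aNE (-1.08 ± 0.20, adjusted p = 0.000812), a fall that was no longer called without aNE replicate 2 (-0.91) or under quantile normalization (-0.88). Of 17 antagonist, receptor and co-activator genes 16 were tested. FZD10 and WIF1 rose, 5 fell and 9 were not called, with a median of -0.79. At an unadjusted p under 0.05 in limma's test, 12 were lower and 3 higher. FZD10 passed only through aNE_M, and RSPO1, RSPO2 and SFRP5 only through aNE. Of the 17 genes, 7 were called lower and 2 higher than in aNE_T (6.55% and 3.5% of all genes). Against aNE_H, 6 were called lower and 2 higher (2.27% and 2.65% of all genes).

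Among the Frizzled receptors, FZD5 and FZD8 fell and FZD10 rose. FZD5, a receptor of the forebrain and eye field, fell from 189 and 189.5 TPM to 1.95 and 2.05 TPM (-5.99 ± 0.14, adjusted p = 9.96e-12), while aNE_T stood at 408 and 391 TPM and aNE_H at 49.7 and 37.9 TPM. FZD8 fell from 38.5 and 36.0 TPM to 1.40 and 1.70 TPM (-3.91 ± 0.16, adjusted p = 6.04e-10). FZD10 rose from 0.416 and 0.589 TPM to 50.3 and 48.6 TPM (5.07 ± 0.17, adjusted p = 1.67e-10). The co-receptors LRP5 (-0.57 ± 0.18) and LRP6 (0.17 ± 0.14) were not called. SFRP1, a secreted antagonist that binds WNT ligands, fell from 557 and 539.7 TPM to 69.7 and 73.5 TPM (-2.92 ± 0.07, adjusted p = 1.48e-11), and SFRP2 fell from 233 and 229 TPM to 49.6 and 51.4 TPM (-2.17 ± 0.11, adjusted p = 5.35e-09). Both were lower in aNE_M than in aNE_T and aNE_H. WIF1, another secreted antagonist, rose from 1.61 and 1.12 TPM to 12.1 and 15 TPM (2.62 ± 0.24, adjusted p = 2.15e-06) and stood between 0.521 and 1.37 TPM in the 4 libraries of the other media. RSPO2, a secreted enhancer of WNT signalling, fell by 1.71 (adjusted p = 0.000167).

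Most response genes of the FGF-ERK cascade rose against aNE. All 14 listed genes were tested; 9 rose, EGR1 fell and 4 (SPRED1, IER3, ETV1 and DUSP5) were not called, with a median difference of 1.47, beside 5.0% of all genes called higher and 8.79% lower. SPRY4, a Sprouty inhibitor of the cascade, rose from 6.4 and 5.03 TPM to 137 and 153 TPM (4.45 ± 0.10, adjusted p = 8.82e-12). DUSP6, the phosphatase that switches off ERK, rose from 29.3 and 33.6 TPM to 228 and 225 TPM (2.81 ± 0.08, adjusted p = 2.03e-11). ETV4 and ETV5, ETS factors downstream of FGF receptors, rose by 2.88 and 3.0. SPRY4 and DUSP6 were high in the forebrain and hindbrain media too. SPRY4 stood at 88.2 and 90.6 TPM in aNE_T and 203 and 188 TPM in aNE_H, and DUSP6 at 277 and 272 TPM in aNE_T and 337 and 352 TPM in aNE_H. In limma's test no gene of the list was called higher in aNE_M than in aNE_T or aNE_H, beside 3.5% and 2.65% of all genes. IER3 and EGR1 were called lower than in aNE_T and IER3 lower than in aNE_H, beside 6.55% and 2.27% of all genes. At an unadjusted p under 0.05, 2 and 2 genes of the list were higher, and 8 and 8 lower, than in aNE_T and aNE_H. EGR1, an immediate early factor, stood at 15.7 and 15.3 TPM in aNE, 3.38 and 3.74 TPM in aNE_M (-1.86 ± 0.17, adjusted p = 1.57e-06), 20.1 and 18 TPM in aNE_T and 3.41 and 3.18 TPM in aNE_H.

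All 4 FGF receptor genes fell against aNE, with a median of -1.66 and 8.79% of all genes called lower. Against aNE_T, 1 of the 4 was called higher in aNE_M and 1 lower (3.5% and 6.55% of all genes). Against aNE_H, 1 was called lower and 0 higher (2.27% and 2.65% of all genes). FGFR3 fell from 179 and 176 TPM to 3.47 and 3.81 TPM (-5.27 ± 0.18, adjusted p = 1.47e-10), below aNE_T (43.6 and 42.0 TPM) and aNE_H (29.4 and 25.6 TPM). FGFR1 fell from 739 and 696 TPM to 215 and 236 TPM (-1.67 ± 0.09, adjusted p = 7.54e-09) and remained the receptor with the highest TPM in aNE_M. FGFR2 fell from 89.4 and 88.2 TPM to 24.4 and 31.1 TPM (-1.65 ± 0.13, adjusted p = 3.06e-07). FGFR4 stood at 54.6 and 43.7 TPM and then 23.3 and 23.2 TPM (-1.04 ± 0.11, adjusted p = 9.34e-06), and was not called without aNE replicate 1 (-0.88). FGF19, a ligand outside the lists and among the 8 genes that lead the ranking against aNE and both other media, rose from 0.291 and 0.237 TPM to 67.5 and 66.8 TPM (5.75 ± 0.19, adjusted p = 1.47e-10), with 0.556 and 0.317 TPM in aNE_T and 2.75 and 1.88 TPM in aNE_H.

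**Figure D3:**
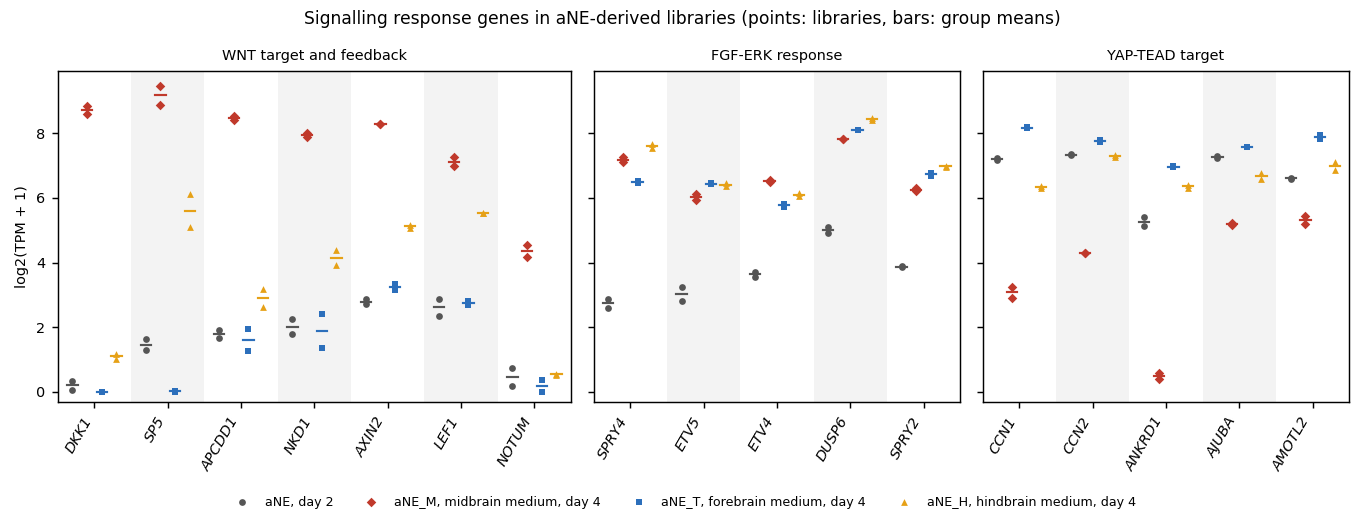
The y axis gives log2(TPM + 1) for WNT target, FGF-ERK response and YAP-TEAD target genes; each point is 1 library and each bar a mean of 2, with the same symbols for aNE, aNE_M, aNE_T and aNE_H as in the plot of regional genes. The aNE_M libraries are above all others for the WNT genes, well above aNE for the FGF-ERK genes (DUSP6 at 228 and 225 TPM), as the other day-4 media are, and below all others for the YAP-TEAD genes.

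Among factors of the dorsal neural tube, 9 of 12 listed genes were tested; MSX1, PAX3, MSX2, PAX7 and ZIC1 rose and none fell in limma's test (1 at an unadjusted p under 0.05), with a median of 1.61 and 5.0% of all genes called higher, and MSX1, PAX3 and PAX7 passed only through aNE_M. MSX1, a homeobox factor of the roof plate and dorsal midline, stood at 0.631 and 0.271 TPM in aNE and 279.8 and 243 TPM in aNE_M (7.51 ± 0.20, adjusted p = 2.23e-11). PAX3 stood at 0.475 and 0.601 TPM and then 120.4 and 130 TPM (6.36 ± 0.22, adjusted p = 2.24e-10). Both were also high in aNE_H, with MSX1 at 87.0 and 79.8 TPM and PAX3 at 54.2 and 50.3 TPM, and low in aNE_T, with MSX1 at 0.393 and 1.13 TPM and PAX3 at 1.45 and 0.715 TPM. MSX2 stood at 3.83 and 3.82 TPM and then 38.5 and 36.0 TPM (2.99 ± 0.17, adjusted p = 2.51e-08). PAX7, the paralog of PAX3 that marks the dorsal midbrain, had means of 0.240 ± 0.162 TPM in aNE and 4.65 ± 0.0443 TPM in aNE_M (SD, n = 2; 2.19 ± 0.16, adjusted p = 2.26e-07), and stood at 7.89 and 6.16 TPM in aNE_T and 8.84 and 7.76 TPM in aNE_H. ZIC1 stood at 12.1 and 9.09 TPM and then 29.4 and 39.5 TPM (1.61 ± 0.30, adjusted p = 0.000948), while ZIC2, ZIC4 and ZIC5 were not called. GDF7, OLIG3 and ATOH1, of the roof plate and the most dorsal progenitors, did not reach the filter.

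The BMP response list had no common direction: of 10 tested genes BMP5 and SMAD7 rose, ID1 and ID4 fell and 6 were not called, with a median of -0.49. The shares over all tested genes, for this list and the next 2, were 5.0% called higher and 8.79% lower. BMP5, a ligand that passed the filter only through aNE_M, stood at 0.189 and 0.0798 TPM and then 13.6 and 16.9 TPM (3.83 ± 0.17, adjusted p = 1.28e-09), with 12 and 11.7 TPM in aNE_H. ID1, a direct target of BMP signalling, stood at 131 and 135 TPM and then 58.0 and 45.6 TPM (-1.36 ± 0.18, adjusted p = 6.15e-05). ID4 was not called without aNE_M replicate 2 (-0.86), and there BMP4 was (-1.01). In the Hedgehog and ventral list, of 12 genes, 7 were tested; NKX6-1, a ventral progenitor factor that passed only through aNE_M, rose (2.62 ± 0.20, adjusted p = 2.78e-07) and 6 were not called, with a median of 0.18. The ligand gene SHH had means of 0.00843 and 0.0141 TPM in aNE and aNE_M, and the targets PTCH1 (0.28 ± 0.12) and GLI1 (-0.92 ± 0.47) were not called, except GLI1 without aNE_M replicate 2 (-1.52). In the NODAL and TGF-beta list 6 of 9 genes were tested, of which CER1, a secreted antagonist, and FOXH1, a SMAD partner, fell by 1.88 and 2.76 and 4 were not called, with a median of -0.15; both passed only through aNE.

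Most forebrain and eye field factors fell. Of 15 listed genes 11 were tested; 8 fell, EMX2 rose and 2 were not called, with a median of -3.76 and 8.79% of all genes called lower. RAX, LHX2, SIX6 and FEZF2 passed the filter only through aNE, and 3 of the 11, EMX2 and VAX1 among them, only through aNE_M. SIX3, a homeobox factor that represses WNT genes in the anterior plate, stood at 187 and 192 TPM in aNE and 3.78 and 3.16 TPM in aNE_M (-5.42 ± 0.15, adjusted p = 2.60e-11). It was present in both other media, at 414 and 379.5 TPM in aNE_T and 73.8 and 58.1 TPM in aNE_H. FEZF1, a zinc finger repressor of the forebrain, stood at 323 and 325 TPM in aNE and 2.89 and 2.48 TPM in aNE_M (-6.47 ± 0.24, adjusted p = 3.01e-10). HESX1, a factor of the anterior plate and pituitary, stood at 105 and 118 TPM and then 1.61 and 2.08 TPM (-5.31 ± 0.24, adjusted p = 2.37e-09). RAX, the eye field factor, stood at 26.8 and 32.2 TPM in aNE and was listed at 0 in both libraries of aNE_M (-4.93 ± 0.42, adjusted p = 9.84e-07). Its aNE_H libraries differed from each other, at 4.75 and 0.487 TPM. LHX5, a LIM homeobox factor of the diencephalon, stood at 258 and 258 TPM and then 17.2 and 13.2 TPM (-4.01 ± 0.22, adjusted p = 1.54e-08), and remained the best expressed of the genes that fell. LHX2, a factor of cortex and eye, stood at 14.3 and 14.3 TPM and then 0.192 and 0.0785 TPM (-3.76 ± 0.32, adjusted p = 9.69e-07).

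Against aNE_T, 10 of the 11 genes were lower in aNE_M and EMX2 was higher, with 6.55% of all genes called lower; against aNE_H, 7 were lower and EMX2 was higher, with 2.27% of all genes called lower. VAX1, a factor of the ventral forebrain and optic stalk, stood at 1.92 and 1.00 TPM in aNE_M and 93.7 and 107 TPM in aNE_T, and was called higher than aNE only with a pseudocount of 0.1 (1.19) among the settings that kept the size threshold. EMX2, a homeobox factor of the dorsal forebrain, went the other way: it stood at 0.228 and 0.261 TPM in aNE, 13.2 and 14.9 TPM in aNE_M, 0.0558 and 0 TPM in aNE_T and 1.10 and 1.03 TPM in aNE_H (3.59 ± 0.17, adjusted p = 3.19e-09 against aNE). LHX9, NKX2-1 and NR2E1 did not reach the filter.

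Neural progenitor genes were divided, while 5.0% of all tested genes were called higher than in aNE and 8.79% lower. Of 15 listed genes 14 were tested; 4 rose (POU3F2, FABP7, VIM and POU3F3), 7 fell (SOX21, POU3F1, PAX6, SOX1, SOX3, SOX2 and NCAM1) and 3 were not called (CDH2, MSI1 and NES), with a median of -1.06; SOX1 and SOX21 passed only through aNE. SOX2, the SOXB1 factor that maintains progenitors, stood at 289 and 297 TPM in aNE and 73.2 and 70.4 TPM in aNE_M (-2.01 ± 0.11, adjusted p = 1.65e-08). In aNE_H it stood at 97.7 and 79.8 TPM, not called different from aNE_M (-0.30 ± 0.11, adjusted p = 0.111), and in aNE_T at 457 and 453 TPM. PAX6, a paired-box factor of forebrain and hindbrain progenitors, stood at 28.9 and 29.3 TPM and then 2.72 and 3.37 TPM (-2.90 ± 0.21, adjusted p = 1.96e-07). SOX1 stood at 7.73 and 6.66 TPM and then 0.316 and 0.530 TPM (-2.53 ± 0.20, adjusted p = 4.12e-07). SOX21, which antagonises SOXB1 factors, stood at 157 and 152 TPM and then 0.613 and 0.440 TPM (-6.67 ± 0.20, adjusted p = 4.35e-11). Among the genes that rose, VIM, an intermediate filament gene of progenitors and of many non-neural cells, stood at 432 and 390.4 TPM and then 2421 and 2359 TPM (2.54 ± 0.09, adjusted p = 3.26e-10). POU3F2, also known as BRN2, stood at 0.759 and 0.384 TPM and then 22.3 and 26.5 TPM (4.02 ± 0.17, adjusted p = 1.21e-09); it passed only through aNE_M, as POU3F3 did. CDH2, the N-cadherin of neural epithelium, had means of 145 ± 7.26 and 175 ± 23.4 TPM (SD, n = 2).

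**Figure D4:**
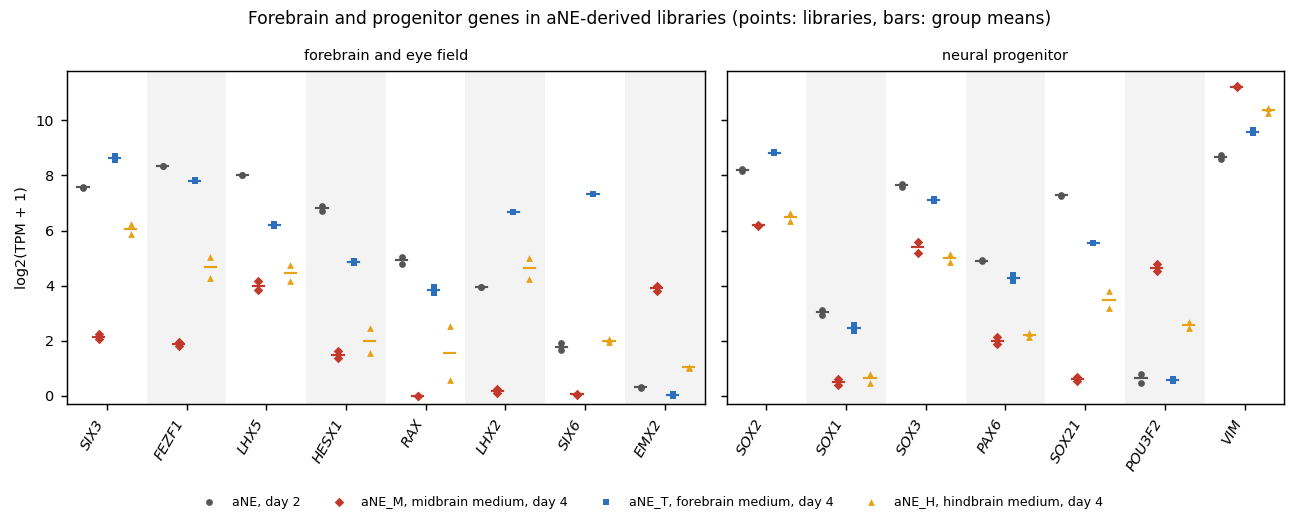
The y axis gives log2(TPM + 1) for forebrain and eye field genes (left) and neural progenitor genes (right); each point is 1 library and each bar a mean of 2, with the same symbols as in the plot of regional genes. The aNE_M libraries lie below aNE for SIX3 (3.78 and 3.16 TPM) and SOX21 and above all other groups for EMX2 and VIM, and SIX6 is high in aNE_T.

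Markers of neurons were mostly low. Beside the counts below, 5.0% of all tested genes were called higher than in aNE and 8.79% lower. Of 15 genes listed 8 were tested; STMN2 and NEUROG1 rose, INSM1 fell and 5 were not called, with a median of 0.03; NEUROG1 passed only through aNE_M and INSM1 only through aNE. STMN2, a microtubule regulator of young neurons, stood at 2.14 and 1.49 TPM in aNE, 20.4 and 22.4 TPM in aNE_M (3.0 ± 0.19, adjusted p = 5.16e-08), 0.317 and 0.401 TPM in aNE_T and 0.519 and 0.308 TPM in aNE_H. NEUROG1, a proneural factor, stood at 0 and 0.0521 TPM and then 1.68 and 3.67 TPM (1.79 ± 0.23, adjusted p = 4.24e-05), and was listed at 0 in all 4 libraries of aNE_T and aNE_H. DCX (0.951 TPM), ELAVL3 (0.929 TPM) and ELAVL4 (0.123 TPM), which define differentiated neurons, were low in aNE_M. The summed TPM of the list was 441 and 459 in the aNE libraries and 581 and 611 in the aNE_M libraries, most of it TUBB3 (513 ± 32.6 TPM, SD, n = 2, in aNE_M); TUBB3 has near-identical copies, so its level is uncertain. The part of such cells in the other results was not tested. INSM1 was not called without aNE replicate 1 (-0.93).

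In the Notch list 13 of 14 genes were tested. HEY1, HEY2, LFNG and HES6 rose, DLL1 fell and 8 were not called, with a median of 0.24, beside 5.0% of all genes called higher and 8.79% lower. HEY1, a bHLH repressor downstream of Notch, stood at 0.312 and 0.299 TPM in aNE, 13.8 and 14.7 TPM in aNE_M (3.55 ± 0.21, adjusted p = 2.94e-08), 1.17 and 1.55 TPM in aNE_T and 1.16 and 1.09 TPM in aNE_H. HEY2 also passed only through aNE_M and rose by 2.55. LFNG, an enzyme that modifies Notch receptors, rose by 1.42, and the ligand DLL1 fell by 1.64. HES1 (-0.68 ± 0.10) and NOTCH1 (-0.27 ± 0.15) were not called, and HES5, the Notch target of later progenitors, did not reach the filter.

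Genes of the retinoid pathway moved in both directions, beside 5.0% of all tested genes called higher than in aNE and 8.79% lower. Of 15 listed genes 12 were tested; 4 rose, 3 fell and 5 were not called, with a median of -0.39; ALDH1A2 and RARB passed only through aNE. STRA6, the retinol uptake receptor, stood at 7.75 and 7.01 TPM and then 146 and 152 TPM (4.16 ± 0.12, adjusted p = 3.25e-11). RDH10, which oxidises retinol, rose by 3.02. CRABP2, which carries retinoic acid to the nucleus, stood at 555 and 540.4 TPM and then 2107 and 1856 TPM (1.85 ± 0.09, adjusted p = 5.32e-09). The genes that fell were CYP26A1, CRABP1 and DHRS3. CYP26A1, the enzyme that degrades retinoic acid, stood at 219 and 223 TPM in aNE and 2.11 and 1.15 TPM in aNE_M (-6.42 ± 0.18, adjusted p = 2.26e-11), and was also low in aNE_T (3.57 and 4.63 TPM) and aNE_H (2.49 and 2.62 TPM). DHRS3, which reduces retinaldehyde, stood at 15.1 and 18.3 TPM and then 1.24 and 1.28 TPM (-2.97 ± 0.12, adjusted p = 8.92e-10). CRABP1 set the media apart: it stood at 159 and 177 TPM in aNE, 53.5 and 52.5 TPM in aNE_M, 613 and 595 TPM in aNE_T and 983 and 946 TPM in aNE_H, and aNE_M was lower than each (-1.64 ± 0.06, -3.49 ± 0.06 and -4.16 ± 0.06). The receptor genes RARA, RARB and RARG were not called, though RARB was with a pseudocount of 0.1 (-1.17).

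Most pluripotency genes fell. Of 13 listed genes 10 were tested; 8 fell and none rose in limma's test (0 at an unadjusted p under 0.05), with a median of -1.32 and 8.79% of all genes called lower, and LCK, UTF1, TDGF1 and PRDM14 passed only through aNE. POU5F1, also known as OCT4, stood at 162 and 164 TPM in aNE and 2.90 and 2.65 TPM in aNE_M (-5.44 ± 0.22, adjusted p = 8.92e-10). It was also low in aNE_T (2.66 and 3.57 TPM) and aNE_H (2.14 and 3.40 TPM); POU5F1 has near-identical copies, so its levels are uncertain. PRDM14, a pluripotency and germ cell factor, stood at 24.0 and 26.0 TPM and then 0 and 0.0636 TPM (-4.66 ± 0.19, adjusted p = 9.90e-10). DNMT3B, a DNA methyltransferase, had means of 421 ± 11.5 and 133 ± 5.0 TPM (SD, n = 2; -1.65 ± 0.08, adjusted p = 5.32e-09). LIN28A (-0.68 ± 0.07, adjusted p = 1.07e-05) and L1TD1 (-0.99 ± 0.10, adjusted p = 4.46e-06) were not called; L1TD1 was with a pseudocount of 0.1 (-1.04), with median-ratio scaling (-1.01), without aNE replicate 2 (-1.06) and without aNE_M replicate 2 (-1.11). The falls of DPPA4 and ZFP42 were not called without aNE_M replicate 1 (-0.96 and -0.97). Against aNE_H none of the 12 tested genes of this list was called in limma's test (1 higher and 3 lower at an unadjusted p under 0.05). The share called over all genes was 4.92%, so few calls would be looked for in a list of this size. Against aNE_T ZFP42 was higher and LCK lower, beside 3.5% of all genes called higher and 6.55% lower. NANOG had means of 0.253 and 0.217 TPM and was not tested. The summed TPM of the list was 2185 and 2204 in aNE and 1024 and 1144 in aNE_M, most of it LIN28A, and the part of undifferentiated cells in the other results was not tested.

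Most epithelial junction genes fell, and the type II cadherins CDH11 and CDH6 rose. Of 13 listed genes 11 were tested; 8 fell, CDH11 and CDH6 rose and TJP1 was not called, with a median of -2.25, beside 8.79% of all genes called lower and 5.0% higher; ESRP1 passed only through aNE. CDH1, the E-cadherin, stood at 55.6 and 49.8 TPM and then 3.04 and 2.97 TPM (-3.74 ± 0.23, adjusted p = 3.94e-08). EPCAM stood at 148 and 138 TPM and then 12.6 and 13.2 TPM (-3.38 ± 0.09, adjusted p = 1.94e-11), near its levels in aNE_T (11.4 and 10.9 TPM) and aNE_H (8.86 and 9.66 TPM). CLDN6, a claudin of early embryonic epithelium, stood at 919.9 and 892 TPM and then 109 and 103 TPM (-3.08 ± 0.09, adjusted p = 3.94e-11). ESRP1, an epithelial splicing regulator, stood at 34.6 and 32.1 TPM and then 0.732 and 0.393 TPM (-4.47 ± 0.15, adjusted p = 1.35e-10). CDH11 stood at 13.9 and 17.3 TPM and then 183 and 181 TPM (3.47 ± 0.13, adjusted p = 4.08e-10), with 174 and 160.3 TPM in aNE_T and 219.8 and 196 TPM in aNE_H. CDH6 stood at 14.1 and 15.4 TPM and then 45.1 and 46.5 TPM (1.57 ± 0.08, adjusted p = 5.49e-09), and was higher still in aNE_H, at 189 and 178 TPM.

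YAP is a co-activator that the Hippo pathway keeps out of the nucleus and that acts through TEAD factors. In the list of their targets and partners, 6 genes fell. All 11 listed genes were tested; ANKRD1, CCN1, CCN2, AJUBA, AMOTL2 and TEAD4 fell, AMOTL1 rose and 4 were not called, with a median of -1.17 and 8.79% of all genes called lower; ANKRD1 passed only through aNE. CCN1, a secreted matrix protein also known as CYR61, stood at 143 and 151 TPM in aNE, 8.51 and 6.54 TPM in aNE_M (-4.13 ± 0.14, adjusted p = 1.47e-10), 289.8 and 286 TPM in aNE_T and 81.0 and 77.8 TPM in aNE_H. CCN2, also known as CTGF, stood at 159 and 162 TPM in aNE, 18.8 and 18.7 TPM in aNE_M (-3.03 ± 0.10, adjusted p = 1.36e-10), 222 and 214 TPM in aNE_T and 158 and 154 TPM in aNE_H. ANKRD1, a target of nuclear YAP, stood at 33.8 and 41.2 TPM in aNE and 0.491 and 0.306 TPM in aNE_M (-4.78 ± 0.21, adjusted p = 1.40e-09), against 126 and 122 TPM in aNE_T and 78.4 and 83.7 TPM in aNE_H. The aNE_M libraries were the lowest of the 4 groups for all 3 genes. Over all tested genes, 35.5% had both aNE_M libraries below both aNE libraries. The share that was lowest in aNE_M among the 4 groups was not computed. Against the media plated at the same density, 7 of the 11 genes were lower than in aNE_T and 5 lower than in aNE_H, and AMOTL1 was higher than in aNE_T; over all genes, 6.55% and 2.27% were called lower in these comparisons. AMOTL1, an angiomotin that holds YAP in the cytoplasm, stood at 27.4 and 24.5 TPM in aNE, 127 and 155 TPM in aNE_M (2.39 ± 0.12, adjusted p = 5.19e-09) and 150.5 and 124 TPM in aNE_H. TEAD1 was not called (-0.83 ± 0.14), except without aNE_M replicate 2 (-1.01).

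The upstream promoters of CCN2 and ANKRD1 are shown because they held the TEAD word GGAATG, copies of which can overlap by 1 base. It was searched on both strands of the 250 bases before the start of each gene in the same RefSeq table (GRCh38.p14). Of the 6 genes of the list that fell, 4 had an entry and 2 of these held a match; 3248 of all 27305 promoters (11.9%) held at least 1. AMOTL2 and AJUBA had an entry without a match, and CCN1 and TEAD4 had no entry. CCN2 has 3 matches and ANKRD1 has 2, all on the gene's strand and in capitals; both genes lie on the minus strand, at chr6:131951373-131951622 and chr10:90921088-90921337, and the sequences run 5′ to 3′ on it. Whether TEAD factors were bound there was not measured.
CCN2: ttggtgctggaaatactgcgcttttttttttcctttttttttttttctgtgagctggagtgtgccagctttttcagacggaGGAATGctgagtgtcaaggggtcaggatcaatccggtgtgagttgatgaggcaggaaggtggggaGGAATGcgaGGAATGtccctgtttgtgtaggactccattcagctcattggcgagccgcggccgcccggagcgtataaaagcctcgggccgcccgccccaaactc
ANKRD1: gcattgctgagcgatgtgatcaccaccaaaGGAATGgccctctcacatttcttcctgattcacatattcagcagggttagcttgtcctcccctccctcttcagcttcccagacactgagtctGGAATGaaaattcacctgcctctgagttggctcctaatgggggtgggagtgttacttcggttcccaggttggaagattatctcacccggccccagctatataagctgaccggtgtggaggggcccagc

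Some genes of the primitive streak and mesoderm were on in aNE_M. Of 13 mesendoderm genes listed 6 were tested. MIXL1, MEOX1, EOMES, TBXT and FOXC1 rose, all of them passing only through aNE_M, and GSC fell, passing only through aNE. Each of the 6 could enter only by being higher in that group, so its direction, and the sign of the median (2.97), followed from the filter. Over all genes 5.0% were called higher and 8.79% lower, shares that the counts of this list cannot be weighed against. MIXL1, a homeobox factor of the primitive streak, stood at 0.284 and 0.305 TPM in aNE, 78.0 and 94.9 TPM in aNE_M (6.07 ± 0.26, adjusted p = 1.05e-09), 0.250 and 0.145 TPM in aNE_T and 0.146 and 0.445 TPM in aNE_H. EOMES, a T-box factor of streak and later of cortical progenitors, stood at 0.10 and 0.163 TPM and then 16.2 and 16.9 TPM (3.95 ± 0.16, adjusted p = 6.04e-10). TBXT, the Brachyury gene, stood at 0.101 and 0.0713 TPM and then 2.72 and 4.01 TPM (1.99 ± 0.20, adjusted p = 4.46e-06). MEOX1, a factor of somites, was listed at 0 in both libraries of aNE and stood at 13.7 and 16.4 TPM in aNE_M (4.0 ± 0.18, adjusted p = 2.50e-09). APLNR, the apelin receptor, which is outside the lists and marks early mesoderm among other cells, stood at 0.0344 and 0 TPM and then 67.3 and 77.0 TPM (6.17 ± 0.18, adjusted p = 3.25e-11). GSC, a homeobox factor of the organizer, fell from 30.4 and 28.4 TPM to 0.781 and 0.258 TPM (-4.34 ± 0.23, adjusted p = 1.12e-08). The remaining 7 genes did not reach the filter: in aNE_M, SOX17 was listed at 0 and TBX6, MESP1, MSGN1, GATA4, GATA6 and FOXF1 had means under 0.5 TPM. The summed TPM of the list was 31.1 and 32.5 in aNE and 116 and 138 in aNE_M, and the part of mesendoderm cells in the other results was not tested.

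Neural crest markers did not share a direction against aNE, where 9 of 11 listed genes were tested. SOX8, TFAP2B, SOX9 and SNAI2 rose, 3 fell, among them NGFR and SOX10, and 2 were not called, with a median of 0.42. Over all tested genes, 5.0% were called higher and 8.79% lower. TFAP2B passed only through aNE_M and SOX10 only through aNE. Against aNE_H, 6 of the 11 genes were lower in aNE_M and 1 was higher, beside 2.27% and 2.65% of all genes. Against aNE_T, 3 were lower and 2 higher, beside 6.55% and 3.5% of all genes. The summed TPM of the crest list was 102 and 107 in aNE and 109.8 and 114 in aNE_M. The defining factors SOX10 and FOXD3 had means of 0.647 and 0.0512 TPM in aNE_M. SOX9, shared by crest, dorsal neural tube and later glia, rose from 14.4 ± 0.913 to 46.6 ± 4.72 TPM (SD, n = 2; 1.63 ± 0.11, adjusted p = 1.32e-07). Of 14 surface ectoderm and placode markers 10 were tested; DLX3 rose, DLX5, DLX6, TFAP2C and GATA3 fell and 5 were not called, with a median of -0.11; GATA3 and DLX6 passed only through aNE. DLX5, a homeobox factor of the border of the neural plate, stood at 48.5 and 46.5 TPM and then 8.66 and 7.09 TPM (-2.46 ± 0.15, adjusted p = 4.79e-08). The rise of DLX3 (1.14 ± 0.31, adjusted p = 0.0102) was not called with a pseudocount of 0.1 (1.46), without aNE replicate 1 (1.09) or without aNE_M replicate 2 (0.93). The summed TPM of this list was 874 and 877 in aNE and 1107 and 1189 in aNE_M, mainly keratins KRT8, KRT18 and KRT19, which have copies and were not called; TP63 and KRT5, which define epidermis, had means of 0.0338 and 0 TPM in aNE_M. The part of crest and surface ectoderm cells in the other results was not tested.

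Of the 14045 genes with a symbol tested against aNE, 175 were higher in aNE_M than in each of aNE, aNE_T and aNE_H. On the lower side there were 128. Both counts needed a call in all 3 comparisons and aNE_M libraries that did not overlap those of any other group. The higher side also needed a mean of at least 5 TPM in aNE_M. The lower side needed it in each of aNE, aNE_T and aNE_H, so the counts have unlike limits. All 3 comparisons use the same aNE_M libraries. Ranked by the smallest of the 3 differences, the 8 leading genes on the higher side were DKK1, EN1, MIXL1, APCDD1, PAX2, APLNR, FGF19 and MYO3B. MYO3B, an unconventional myosin known from the ear, stood at 1.01 and 0.909 TPM in aNE, 111 and 139 TPM in aNE_M (6.0 ± 0.16, adjusted p = 2.03e-11), 0.711 and 0.692 TPM in aNE_T and 6.34 and 5.37 TPM in aNE_H. The 8 leading genes on the lower side were DLK1, ANKRD1, SIX3, FZD5, LHX2, SORBS2, ANXA3 and THBS1. DLK1, a non-canonical Notch ligand from an imprinted locus, stood at 124 and 139.8 TPM in aNE, 2.98 and 3.35 TPM in aNE_M (-5.0 ± 0.21, adjusted p = 9.18e-10), 803 and 756 TPM in aNE_T and 184 and 149 TPM in aNE_H. SORBS2, an adaptor of the actin cytoskeleton, stood at 151 and 154 TPM and then 2.40 and 4.87 TPM (-5.10 ± 0.22, adjusted p = 1.23e-09), with 127 and 158 TPM in aNE_T. THBS1, a secreted matrix protein, stood at 31.7 and 38.4 TPM and then 2.02 and 3.21 TPM (-3.33 ± 0.20, adjusted p = 4.05e-08), and ANXA3, a calcium-dependent membrane-binding protein, at 42.4 and 42.4 TPM and then 1.47 and 2.66 TPM (-3.85 ± 0.19, adjusted p = 4.22e-09). Over all genes, 1712 of 17033 (10.1%) were called between aNE_M and aNE_T, and 838 (4.92%) between aNE_M and aNE_H. Of the 838, 452 were higher in aNE_M and 386 lower, and this balance turned without aNE_H replicate 2 (400 higher and 435 lower).

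**Figure D5:**
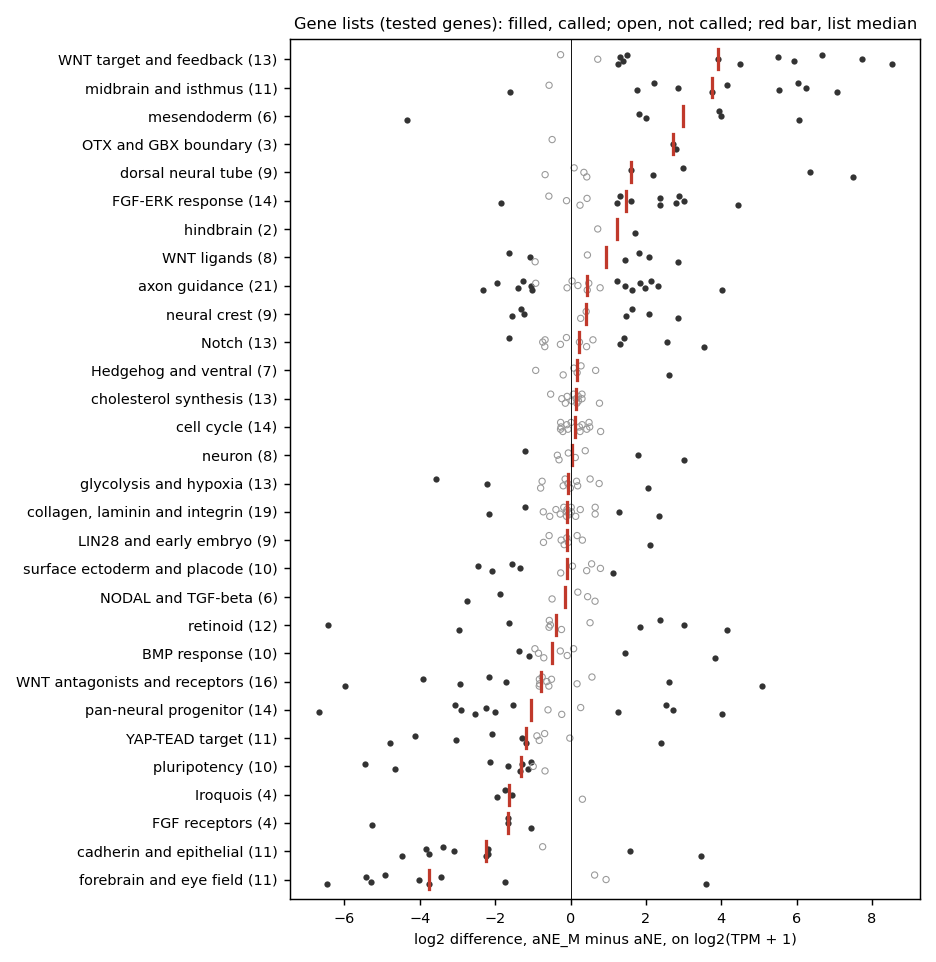
The x axis gives the difference aNE_M minus aNE on the log2(TPM + 1) scale for each tested gene of the 30 lists, ordered by list median (red bar), with the number of tested genes in brackets; filled points were called and open points were not. WNT target, midbrain and isthmus lists lie at the top (medians 3.91 and 3.77), and the forebrain and eye field list at the bottom (-3.76).

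The responses of cells of posterior and anterior origin to the same medium differed for the engrailed genes, PAX5 and GBX2. The levels reached in pNE_M and aNE_M were not tested against each other. The difference of the responses, (pNE_M minus pNE) minus (aNE_M minus aNE), was called for 1195 of 17033 genes (7.02%), 567 (3.33%) with a higher and 628 (3.69%) with a lower value in cells of pNE origin, a balance that turned with median-ratio scaling (608 and 580) and without pNE replicate 2 (626 and 585). Origin and plating density at day 4 changed together and cannot be told apart here. EN1 was listed at 0 in both pNE and both pNE_M libraries (difference of responses -7.08 ± 0.22, adjusted p = 8.45e-10), and EN2 stayed under 0.1 TPM in all 4 (-4.16 ± 0.23, adjusted p = 9.24e-08). PAX2 went from 0.369 and 0.276 TPM to 33.0 and 33.1 TPM in cells of pNE origin, and its difference of responses was not called (-0.85 ± 0.25, adjusted p = 0.0422). PAX5 went from 0.0728 and 0.136 TPM to 0.198 and 0.749 TPM (-5.66 ± 0.49, adjusted p = 4.62e-06). GBX2 moved in opposite directions: it rose in aNE_M, to 16.2 and 9.67 TPM, and went from 172 and 216 TPM in pNE to 5.22 and 6.44 TPM in pNE_M (-4.83 ± 0.20 within pNE; difference of responses -7.56 ± 0.28, adjusted p = 2.48e-09). Among WNT targets, SP5 went from 2.47 and 8.76 TPM to 756 and 625 TPM (-0.84 ± 0.57, adjusted p = 0.397) and NKD1 from 2.20 and 1.8 TPM to 156 and 139 TPM (-0.30 ± 0.71, adjusted p = 0.850), neither called, which does not show that the responses were equal. DKK1 was listed at 0 in both pNE libraries and stood at 91.8 and 97.6 TPM in pNE_M, and APCDD1 went from 2.32 and 2.89 TPM to 41.5 and 38.1 TPM, both with a smaller response than in aNE (-1.94 ± 0.22, adjusted p = 5.67e-05, and -3.17 ± 0.34, adjusted p = 2.85e-05). The FGF-ERK gene SPRY4, which rose in aNE_M, started high in pNE at 77.5 and 86.0 TPM and stood at 71.8 and 73.9 TPM in pNE_M (-4.61 ± 0.15, adjusted p = 8.45e-10). ANKRD1 stood at 15.1 and 13 TPM in pNE and 10.6 and 7.35 TPM in pNE_M (4.17 ± 0.29, adjusted p = 7.56e-07). CCN2 stood at 116 and 134 TPM in pNE and 71.2 and 75.8 TPM in pNE_M (2.27 ± 0.14, adjusted p = 2.47e-07), so that both responses differed from those of aNE_M.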

How the data were processed

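Poly-T-selected mRNA of H1 cells was sequenced in 18 libraries, 2 for each of 9 groups, and the authors deposited 1 table of TPM values; per the submitters' processing notes, bcl2fastq, FastQC, Trim Galore, kallisto, deepTools and the hg38 genome were used. Versions, the transcript annotation and the use of strand are not given in the sources used here. The TPM table holds no counts, so depth is unknown and no counting interval is given; low values are less precise. Of its 37550 rows, 7898 carry a transcript identifier and no symbol.

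From these values log2(TPM + 1) was computed and fitted with limma 3.58.1 in R 4.3.3, with 1 mean per group over all 18 libraries (9 residual degrees of freedom) and a variance trend. Genes needed at least 1 TPM in at least 2 libraries, of the 4 for aNE_M against aNE (14678 genes) and of all 18 for the other comparisons (17033 genes). A call needed a Benjamini-Hochberg adjusted p under 0.05 and an absolute difference of at least 1. The fits were tested on simulated data. Groups and replicate numbers came from the labels. The replicate numbers did not pair the libraries: the correlations of same-numbered deviations were -0.0336 between aNE and aNE_M, -0.0372 against aNE_T and 0.0081 against aNE_H. Alternatives changed the pseudocount, the filter, the scaling, the libraries fitted, the replicate block, the size threshold and the libraries left out.

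The members and the 30 gene lists were chosen with earlier results of these data known. The text names list genes by size of change, the 12 largest rises and falls among called genes with a symbol, no overlap and a mean of 5 TPM or more in the group where they are higher, and the 8 genes furthest above and below aNE, aNE_T and aNE_H together under the same limits. Genes with near-identical copies, such as POU5F1, NANOG, KRT8, KRT18, HMGA1 and TUBB3, have uncertain values. Promoters came from RefSeq (GRCh38.p14), matched by symbol. A few list genes enter the counts and medians and are not reported by name here.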

Additional observations from a re-analysis of the deposited data

Results flagged for a closer look

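The responses of cells of aNE and pNE origin to midbrain medium differed, by limma's test of the difference itself, for 1195 of 17033 genes. Values here are (pNE_M minus pNE) minus (aNE_M minus aNE) on the log2(TPM + 1) scale, so that a negative value is a smaller rise or a larger fall from the day-2 level in cells of pNE origin, whatever level was reached. Among midbrain and isthmus genes the value was -7.08 for EN1, -4.16 for EN2, -5.66 for PAX5, -2.84 for CNPY1, -2.35 for IL17RD, -2.12 for FGF18 and -1.96 for FGF17, and 1.51 for LMX1A, which fell in aNE_M. At the boundary it was -7.56 for GBX2, -2.90 for OTX1 and -1.80 for OTX2. Of the 12 genes with the largest rises in aNE_M the difference was called for 10, all lower, and not for MSX1 (0.91) and SP5 (-0.84). Over all 17033 genes, 3.69% were called lower and 3.33% higher. Among them it was -5.99 for ZNF503, -3.17 for APCDD1, -3.03 for MIXL1, -2.87 for APLNR, -1.94 for DKK1, -1.62 for PAX3 and -1.15 for TMEM132C. ZNF503 started at 88.1 and 122 TPM in pNE and stood at 148 and 152 TPM in pNE_M, while it started at 1.04 and 1.43 TPM in aNE. The genes were picked for their list or their rise in aNE_M, so the direction of these values is not independent of that choice. Origin and plating density changed together and cannot be told apart.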

How the results depend on the processing

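With the adjusted p alone, without the size threshold, 6048 genes were called between aNE_M and aNE (2892 higher and 3156 lower), 5538 between aNE_M and aNE_T (2571 higher and 2967 lower), 2423 between aNE_M and aNE_H (1337 higher and 1086 lower) and 2373 for the difference of responses (965 higher and 1408 lower). The other settings kept these 4 counts within 1.5 times. The balance of higher and lower genes turned against aNE_H without aNE_H replicate 2 (400 higher, 435 lower), and for the difference of responses with median-ratio scaling (608 and 580) and without pNE replicate 2 (626 and 585). No list gene called between aNE_M and aNE changed sign; some uncalled ones near 0 did, such as PDK1 (-0.0056, and 0.004 with a pseudocount of 0.1). For aNE_M against aNE, 2442 genes were called with a pseudocount of 0.1, 2010 with no filter, 1421 with at least 5 TPM, 2017 with median-ratio scaling, 1945 with quantile normalization and 2091 with only the 4 libraries fitted. With a replicate block, the counts were 2024, 1713, 839 and 1187 in the same order as above; the numbers do not pair the libraries. Leaving out 1 library at a time gave 1946 to 2054 genes for aNE_M against aNE (708 to 757 higher, 1192 to 1346 lower), 1681 to 1778 against aNE_T, 804 to 887 against aNE_H and 1072 to 1211 for the difference of responses; the lone library is then assumed to vary like the other groups. EFNA5 lost its call without aNE replicate 1 (-0.94) or aNE_M replicate 1 (-0.58), and SEMA5A without either (-0.996 and -0.897) and under quantile normalization (-0.84). With 2 libraries per group and no counts, low genes limit the precision.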

Other observations

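Iroquois factors, which pattern the neural plate, were mostly lower in aNE_M than in aNE. Of 6 genes 4 were tested, and IRX2, IRX3 and IRX5 fell, with 8.79% of all genes called lower. None rose in limma's test (0 at an unadjusted p under 0.05) and IRX1 was not called, with a median difference of -1.64. IRX3 stood at 33.3 and 32.1 TPM in aNE and 8.97 and 6.64 TPM in aNE_M (-1.95 ± 0.21, adjusted p = 7.80e-06). Axon guidance genes moved in both directions, with 8 of 21 tested genes higher, 6 lower and a median of 0.44, beside 5.0% of all genes called higher and 8.79% lower. EPHA7, an ephrin receptor, stood at 20.0 and 19.9 TPM and then 43.2 and 53.6 TPM (1.23 ± 0.18, adjusted p = 0.000134). UNC5B, a netrin receptor, stood at 23.9 and 25.4 TPM and then 3.88 and 4.34 TPM (-2.33 ± 0.11, adjusted p = 4.40e-09). IGF2, a growth factor gene from an imprinted locus, was the called gene among 9 tested of the LIN28 and early embryo list (median -0.10), and stood at 2.63 and 1.77 TPM in aNE, 11.4 and 14 TPM in aNE_M (2.10 ± 0.16, adjusted p = 3.28e-07), 2.80 and 2.55 TPM in aNE_T and 3.80 and 3.12 TPM in aNE_H.

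No gene of the cell cycle list (14 tested, median 0.13) or the cholesterol synthesis list (13 tested, median 0.15) was called in limma's test between aNE_M and aNE. Over all tested genes 13.8% were called, 5.0% higher and 8.79% lower. With lists of this size, the absence of calls does not show that these genes were unchanged. At an unadjusted p under 0.05, 6 cell cycle genes were higher and 3 lower, and 3 cholesterol genes were higher and 2 lower. In the glycolysis and hypoxia list 13 genes were tested; the glucose transporter SLC2A1 rose (2.05 ± 0.11, adjusted p = 1.35e-08) and VEGFA (-2.20 ± 0.14, adjusted p = 7.77e-08) and ADM (-3.56 ± 0.11, adjusted p = 9.97e-11) fell, with a median of -0.07. Of 19 collagen, laminin and integrin genes COL2A1 and COL1A2 rose by 2.36 and 1.29 and ITGA3 and ITGA6 fell, with a median of -0.09.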
